A study of Mus musculus with 3 samples.

Results

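The DEAD and DEAH box RNA helicases were read in R1, an ES (embryonic stem) line from 129 mice, as the genes whose single symbol in the array's annotation was Ddx or Dhx followed by a number and at most 1 letter. The rule left out Ddx4 and Ddx58, and 48 of 19057 measured genes met it, of which 33 had a Ddx and 15 a Dhx symbol. The study holds 1 group, 3 biological repeats of R1 total RNA on the Affymetrix Mouse Gene 1.0 ST array, and no other genotype, strain, treatment or time. The labels do not say how the cultures were kept or whether feeder cells were present. Values answer which helicases gave signal in these cells and how evenly the repeats read them; a comparison between conditions cannot be made. No cell type other than R1 was measured, so nothing here can be called particular to ES cells.

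DEAD and DEAH box proteins use ATP to open short RNA duplexes or to strip proteins from RNA, and are named after a conserved stretch of amino acids in their ATPase core. DEAD box members mostly act locally on RNA, while DEAH box members move along a strand and are often switched on by cofactors with a G-patch domain. Between them they serve ribosome assembly, splicing, mRNA export, translation, mRNA decay and the sensing of viral RNA. Rapidly dividing cells such as ES cells make large numbers of ribosomes and spliceosomes.

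Promoter windows of the genes gave sequence context that the rule did not use. RefSeq's promoter table (GRCm38.p6) held 42 of the 48 helicase genes, and the 250 bases before each annotated start were read. Ddx6, Ddx11, Ddx23, Ddx39a, Dhx38 and Dhx58 had no entry. Shown are the windows of Ddx60, the interferon-induced member that stayed below background, of Ddx21, a nucleolar member with signal, and of Ddx43 and Ddx25, which are known for expression in the germline. Capitals mark matches on either strand to the motifs searched, which in these 4 windows were an interferon-response-like motif (GAAA, any 2 bases, GAAA) and the CCAAT box.
Ddx60 (chr8:61927837-61928086, + strand): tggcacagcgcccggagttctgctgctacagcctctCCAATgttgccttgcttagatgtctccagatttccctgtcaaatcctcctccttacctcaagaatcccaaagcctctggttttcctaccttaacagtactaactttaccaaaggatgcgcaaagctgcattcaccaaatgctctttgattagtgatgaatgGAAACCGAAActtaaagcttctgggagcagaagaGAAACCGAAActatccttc
Ddx21 (chr10:62602299-62602548, - strand): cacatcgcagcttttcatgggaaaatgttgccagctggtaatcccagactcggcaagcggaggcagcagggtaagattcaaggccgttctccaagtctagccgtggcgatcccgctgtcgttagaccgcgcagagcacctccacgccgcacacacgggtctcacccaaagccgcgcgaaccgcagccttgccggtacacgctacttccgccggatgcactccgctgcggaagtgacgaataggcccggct
Ddx43 (chr9:78395527-78395776, + strand): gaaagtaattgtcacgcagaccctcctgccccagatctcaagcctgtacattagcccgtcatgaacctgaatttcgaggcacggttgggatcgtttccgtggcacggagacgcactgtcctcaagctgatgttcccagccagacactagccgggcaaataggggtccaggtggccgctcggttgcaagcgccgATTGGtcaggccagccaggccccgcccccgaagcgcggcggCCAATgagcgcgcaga
Ddx25 (chr9:35558471-35558720, - strand): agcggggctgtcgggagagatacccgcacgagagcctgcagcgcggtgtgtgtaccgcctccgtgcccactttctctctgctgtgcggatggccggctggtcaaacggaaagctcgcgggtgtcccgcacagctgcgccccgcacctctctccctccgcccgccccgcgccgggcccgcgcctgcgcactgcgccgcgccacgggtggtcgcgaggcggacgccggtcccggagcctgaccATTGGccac

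The Ddx60 window held the interferon-response-like motif at 2 places, beginning 53 and 19 bases before the start, and held 5 CpG dinucleotides. The Ddx21, Ddx43 and Ddx25 windows held no match to that motif and 25, 20 and 34 CpG dinucleotides. The helicase genes had a median of 18 CpG dinucleotides per window, against 10 over 17491 protein-coding genes and 6 over all 27025 genes with an entry. The interferon-response-like motif was found in 2 of 42 helicase genes (4.76%, against 3.46% of all genes), Ddx60 and Ddx49. The CCAAT box, searched as CCAAT, was found in 20 (47.6%, against 37.5%), the E-box CACGTG in 5 (11.9%, against 6.86%), and TATAAA in 3 (7.14%, against 14.3%). Over the 17491 protein-coding genes these last 3 shares were 39.5%, 7.61% and 13.7%, and that of the interferon-response-like motif was 3.48%. All motifs were read on both strands, and a match is a description of letters, not a binding site.

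Almost every helicase gene gave signal. A gene was counted above background on an array when its log2 intensity exceeded a cutoff set by 1171 genes of the olfactory and vomeronasal receptor families, their 95th percentile on that array, at 4.72, 4.60 and 4.61 in repeats 1, 2 and 3. Of the 48 helicases 46 (95.8%) were above it on all 3 arrays, against 67.3% of all genes and 71.4% of genes outside the receptor families, and the other 2, Ddx60 and Dhx58, on none. At the 99th percentile of the receptors 45 remained, with Ddx28 lost (51.7% of all genes passed). At the 95th percentile of 123 genes of other silent families, which lay at 6.15, 6.24 and 6.13, 43 remained on all 3 arrays (40.2% of all genes). Ddx25, Ddx28 and Dhx34 were the members that passed the receptor cutoff but not this one, so their signal lay near background. The cutoffs are limits of detection, and probe sets differ in brightness, so levels of different genes were not ranked.

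**Figure D1:**
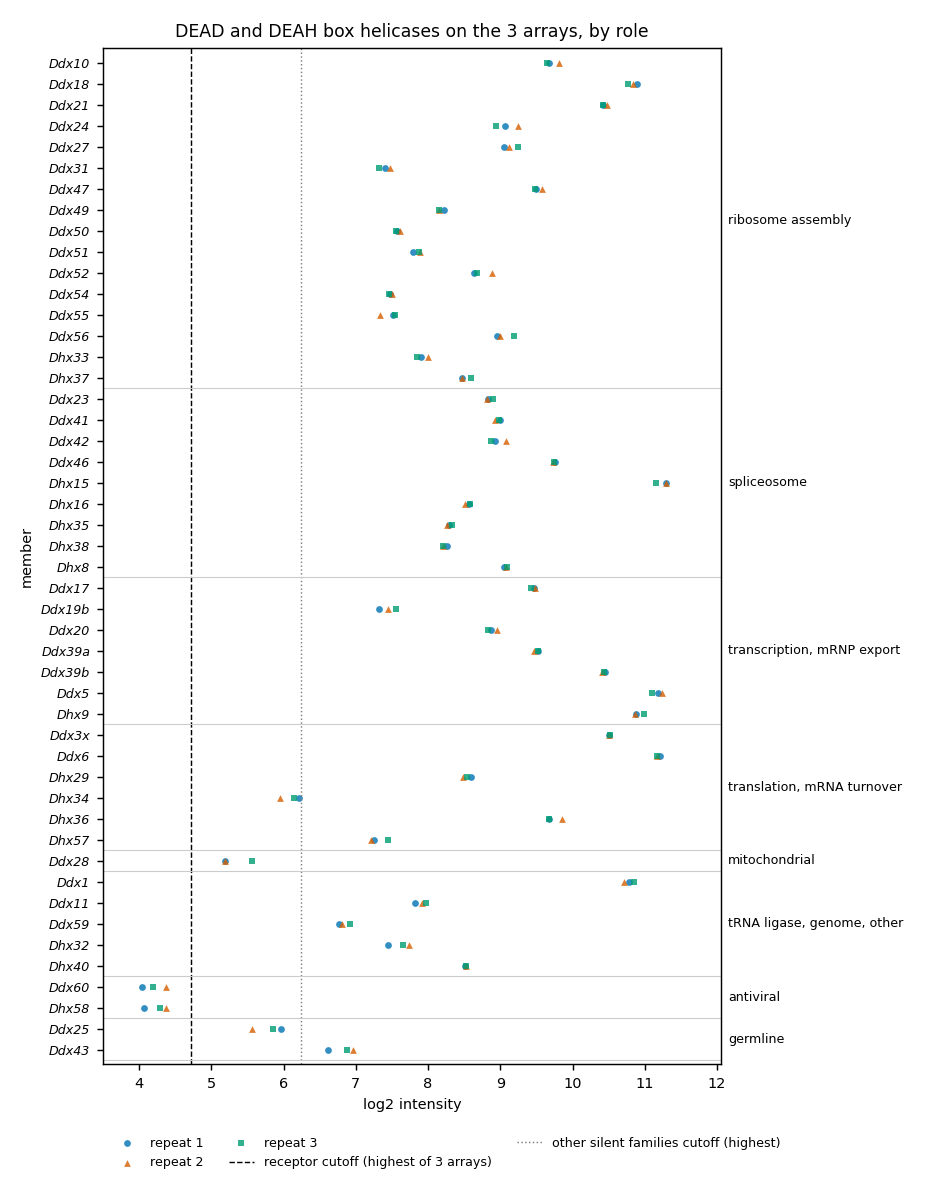
Log2 intensity (horizontal axis) of each of the 48 helicase genes (rows, grouped by role) in repeats 1, 2 and 3, each point 1 array; dashed and dotted lines mark the highest of the 3 arrays' cutoffs, 4.72 for receptor genes and 6.24 for other silent families. Ddx60 and Dhx58 lie left of the dashed line, and the 3 points of most other genes lie close together.

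The repeats read the helicases evenly. Over the 46 genes above background, the median SD over 3 repeats was 0.0675 log2 units, against 0.103 over all 13598 genes above background on at least 1 array. The median was 0.0666 without repeat 1, 0.0391 without repeat 2 and 0.0414 without repeat 3. Over all genes the same settings gave 0.0875, 0.0771 and 0.0881. The helicases were lower each time, with the smallest gap when repeat 1 was left out. These are SDs of 2 arrays, so they cannot be set directly beside the SD over 3 repeats. The range over the 3 repeats was under 0.2 log2 units in 34 of the 46 (50.9% of all genes tested) and over 1 unit, a 2-fold difference, in 0 (0.36% of all genes tested). The widest range was 0.40, in Ddx25.

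Brighter genes vary less on these arrays, so each gene's variance was also divided by the limma trend for its level. The median of this ratio was 0.423 over the helicases and 0.744 over all genes tested, and it was under 1 in 32 of 46 helicases (60% of all genes). The limma variance test, Benjamini-Hochberg adjusted over all 13598 genes, called 0 of the 46 helicases, against 22 genes in all (0.162%). At an unadjusted p under 0.05 it also held 0 helicases, against 782 genes in all (5.75%). The smallest adjusted p of a helicase was 0.973, for Ddx28. The labels call the repeats biological but do not describe separate cultures, so this spread may be partly technical.

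**Figure D2:**
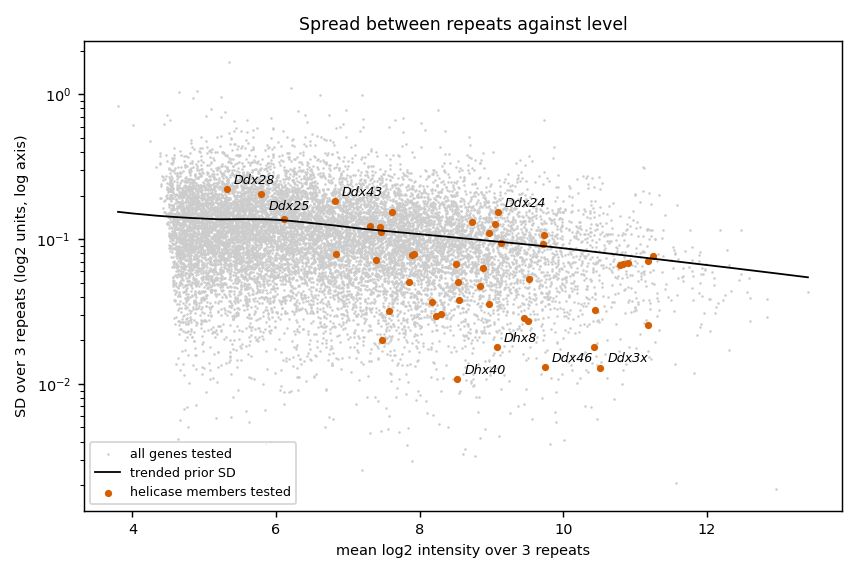
SD over the 3 repeats (vertical log axis, log2 units) against mean log2 intensity for the 13598 genes tested (grey) and the 46 helicases tested (orange), with the limma trend as a line. Ddx28, Ddx25, Ddx43 and Ddx24 lie above the line, while Dhx40, Ddx3x, Ddx46 and Dhx8 lie far below it.

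Ribosome assembly was the largest role, with 16 helicases that work in the nucleolus on the precursors of both ribosomal subunits. All 16 were above background, also at the cutoff of the other silent families, with SDs from 0.020 to 0.15. Ddx21, which links RNA polymerase I transcription to rRNA processing, read log2 10.42, 10.48 and 10.42 in repeats 1, 2 and 3. Ddx50, its paralog and next neighbour in the RefSeq gene order, read 7.57, 7.61 and 7.56. Both genes were slightly higher in repeat 2, by 0.056 and 0.055 log2 units over the mean of the other repeats, and neither passed the variance test (limma, adjusted p = 0.998 for both).

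Several of the large subunit helicases were less even. Ddx24 read 9.07, 9.25 and 8.94 and had the largest SD of the role (0.15), with repeat 2 highest and repeat 3 lowest, a 1.24-fold range (limma, adjusted p = 0.975). Ddx56 read 8.95, 8.99 and 9.19 and was high in repeat 3 only. Ddx55, by contrast, read 7.51, 7.33 and 7.54 and was low in repeat 2. Ddx27 (9.14 ± 0.094, SD, n = 3), Ddx31 (7.40 ± 0.072) and Ddx51 (7.85 ± 0.051) had smaller SDs. None of these 6 passed the limma variance test.

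Of the small subunit helicases, Ddx52 read 8.63, 8.88 and 8.68, with repeat 2 apart from the others. Ddx10 was likewise highest in repeat 2, at 9.67, 9.82 and 9.65. Ddx47 (9.52 ± 0.053, SD, n = 3), Ddx49 (8.18 ± 0.037) and Dhx37 (8.51 ± 0.067), the helicase that frees the U3 snoRNA from the early subunit, were more even. Dhx33, a nucleolar DEAH box helicase, read 7.91 ± 0.079. In this role the values of 2 members depend on how probe sets were joined. Ddx18 was the mean of probe sets at 10.66 ± 0.12 and 10.998 ± 0.023. Ddx54 was the mean of probe sets at 9.19 ± 0.015 and 5.76 ± 0.025, which disagree in level by over 3 log2 units but read the repeats alike.

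Repeat 2 was the highest of the 3 in 10 of these 16 genes, against 36.4% of all genes tested, and lay above the mean of the other repeats in 11 of 16 (51% of all genes). The median shift was 0.054 log2 units, and it was 0.013 after quantile normalization of the arrays and 0.071 after centring each array on its median. Over 28 other ribosome assembly genes, such as fibrillarin (Fbl) and nucleolin (Ncl), the median shift was 0.064 and repeat 2 was highest in 13. All 28 were above background and 0 passed the variance test (3 at an unadjusted p under 0.05), with the largest SDs in Rrs1 (8.77 ± 0.24, n = 3) and Tsr1 (10.69 ± 0.18). The shift of the role as a whole was not tested.

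**Figure D3:**
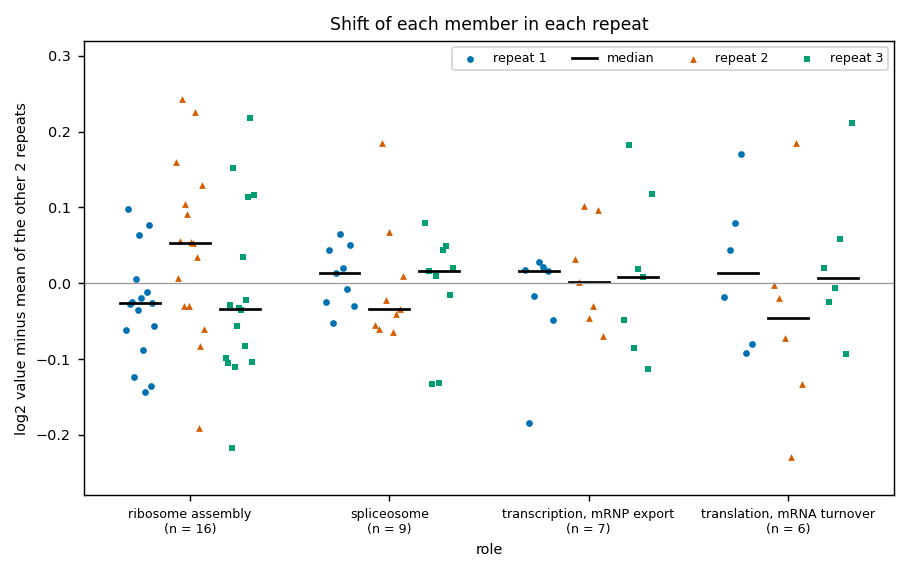
Log2 value of each helicase in 1 repeat minus the mean of the other 2 (vertical axis), for repeats 1, 2 and 3 in the 4 roles with most members; black bars are medians. In repeat 2 the median was 0.054 in ribosome assembly, -0.034 in the spliceosome, 0.0016 in transcription and export and -0.046 in translation and turnover, and the points of each role lie on both sides of 0.

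The spliceosome's 9 helicases were the most even of the larger roles, with a median SD of 0.036 and a range under 0.2 log2 units in 8. Ddx46, which helps the U2 particle settle on the branch site, read 9.75, 9.73 and 9.75. Ddx23, which acts when U6 replaces U1 at the donor splice site, read 8.83, 8.81 and 8.90. Both genes were even, with ranges of 0.024 and 0.090 log2 units. Dhx16 then activates the assembled spliceosome and read 8.56, 8.51 and 8.58. Dhx38, needed for exon joining, read 8.26, 8.20 and 8.21. Dhx8, which releases the joined mRNA, read 9.05, 9.08 and 9.09 and was among the 4 most even helicases of all.

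Dhx15, which takes the spent spliceosome apart and also serves ribosome assembly, read 11.29, 11.29 and 11.16, lower in repeat 3. Ddx42, a relative of Ddx46, had the widest range of the role at 8.92, 9.08 and 8.87, with repeat 2 highest. Ddx41 (8.97 ± 0.036, SD, n = 3) and Dhx35 (8.30 ± 0.030), found in spliceosomes at the catalytic stage, were even. In repeat 2 the role's median lay at -0.034 and 3 of 9 genes lay above the other repeats. Quantile normalization moved the median to -0.091, and centring each array on its median moved it to -0.017. Among 27 other spliceosome genes, all above background, 0 passed the variance test and 0 had an unadjusted p under 0.05 (limma); the largest SDs were 0.17 in Prpf31 and 0.14 in Slu7. Of 10 measured G-patch cofactors of DEAH helicases, all were above background and 0 passed (1 at an unadjusted p under 0.05), with the largest SDs in Rbm17 (9.57 ± 0.20, n = 3) and Sugp1 (7.86 ± 0.12).

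Helicases of transcription and mRNP export numbered 7, all above both cutoffs. Ddx5, a coregulator of transcription that also assists Drosha in miRNA processing, read 11.19, 11.24 and 11.10 as the mean of 2 probe sets. Its paralog Ddx17 read 9.47, 9.48 and 9.42, and in both genes repeat 3 was lowest and repeat 2 highest. For Ddx5 the place of repeat 2 depends on how probe sets were joined. Its brighter probe set read 11.37, 11.35 and 11.23, highest in repeat 1, while the other was highest in repeat 2. Repeat 3 was lowest in both probe sets. Dhx9, RNA helicase A, read 10.87, 10.86 and 10.98 and was highest in repeat 3. Ddx20, the helicase of the SMN complex that builds snRNPs, read 8.87, 8.95 and 8.83.

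The export helicases Ddx39a and Ddx39b, close paralogs that load mRNA export factors as part of the TREX complex, were even. Ddx39b read 10.44, 10.41 and 10.43, and Ddx39a read 9.52, 9.47 and 9.52, with repeat 2 lowest in both. Because the paralogs resemble each other, signal may be shared between their probe sets, which was not tested. Ddx19b, which acts with Gle1 on the cytoplasmic face of the nuclear pore, read 7.32, 7.44 and 7.56 and was the least even of the role. All 26 measured partners of single members, such as Gle1, Drosha and the TREX and SMN subunits, were above background. The variance test called 0 of them (1 at an unadjusted p under 0.05), with the largest SDs in the SMN subunits Gemin6 (8.37 ± 0.23, n = 3) and Gemin2 (7.74 ± 0.205).

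Translation and cytoplasmic mRNA turnover was served by 6 helicases. Ddx3x, which aids initiation on structured mRNAs, read 10.498, 10.508 and 10.52, a range of 0.026 log2 units. Its relatives resemble it in sequence, so the signal may not come from the X-linked gene alone, which was not tested. The autosomal relative D1Pas1, known from testis, read 6.40, 6.79 and 6.17 and was the least even of the DEAD and DEAH family genes under other names. Ddx6, which holds mRNAs in repression and promotes decapping, read 11.21, 11.17 and 11.16 and was also even.

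Dhx29, which helps the small ribosomal subunit scan structured leaders, read 8.59, 8.49 and 8.53. Dhx36, which resolves G-quadruplexes, read 9.67, 9.86 and 9.67 and was high in repeat 2 only. Dhx57 read 7.25, 7.21 and 7.44 and was high in repeat 3 only. Dhx34, a factor of nonsense-mediated decay, read 6.22, 5.95 and 6.14 and fell below the cutoff of the other silent families in repeat 2. The family's members under other names, among them the initiation helicases Eif4a1 (12.27 ± 0.084, SD, n = 3), Eif4a2 (11.002 ± 0.065) and the exon junction helicase Eif4a3 (9.04 ± 0.054), were all 6 above background. Of these 6 the variance test called 0, with D1Pas1 at an adjusted p of 0.679, and Tdrd9 (4.83 ± 0.095), a piRNA pathway helicase, lay nearest the cutoff.

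Outside these roles, 5 helicases were above background on all 3 arrays and at the cutoff of the other silent families. Ddx1, a subunit of the tRNA ligase complex, read 10.78, 10.72 and 10.85. Ddx11, a DNA helicase of sister chromatid cohesion despite its name, read 7.81, 7.92 and 7.97. Ddx59 read 6.77, 6.802 and 6.92, and like the previous gene it was lowest in repeat 1. Dhx40 read 8.51, 8.53 and 8.52 and had the smallest SD of all helicases (0.011). Dhx32 stood at the other end of the role with 7.44, 7.74 and 7.65 (SD 0.15). The mitochondrial member measured here was Ddx28, a helicase of mitochondrial ribosome assembly, which read 5.18, 5.18 and 5.57. It was high in repeat 3 only, a 1.31-fold range with the largest SD of the helicases above background (0.22). It passed the 99th percentile of the receptors on 1 array only, and the variance test did not call it (limma, unadjusted p = 0.123).

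The germline-associated helicases gave signal of unequal strength against background. Ddx43, known as a cancer and testis antigen, read 6.61, 6.96 and 6.88 and exceeded both cutoffs on all 3 arrays. Ddx25, the gonadotropin-regulated testicular helicase, read 5.96, 5.56 and 5.85 and stayed below the cutoff of the other silent families on each. The repeats ordered them in opposite ways, with Ddx43 lowest in repeat 1 and Ddx25 lowest in repeat 2, and neither passed the variance test (limma, adjusted p = 0.992 and 0.987). Of 8 other germ cell genes 5 were above background (67.3% of all genes). Repeat 2 was the highest in 4 of those 5 (36.4% of all genes tested) and in Ddx43, whereas Ddx25 was lowest there. The germ cell list was chosen with earlier results of these data known, so these counts are description only.

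The antiviral helicases were the members without detected signal. Dhx58, also called LGP2, is a cytoplasmic receptor of viral RNA that lacks signalling domains, and it read 4.07, 4.38 and 4.29. Ddx60, an interferon-induced helicase, read 4.04, 4.37 and 4.19. Every one of these 6 values lay under the array's cutoff, so the differences between repeats have no order and no fold is given. They were also the 2 members left out of the variance test by the filter; fitted with all genes included, neither passed.

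Interferon response genes, which commonly rise together with both helicases, were uneven in the same libraries. Of 11 measured, 5 were above background on all 3 arrays, 4 on some and 2 on none, and their mean log2 level was 4.94, 5.98 and 5.02 in repeats 1, 2 and 3. Repeat 2 was the highest in all 9 that were tested (36.4% of all genes tested), with a median shift of 1.24 log2 units. The filter had a part in this count, because Ifit1 and Ifih1 passed it through repeat 2 alone. The variance test called 5 of the 9 (limma, adjusted p under the threshold of 0.05), against 0.162% of all genes tested. This list was chosen with earlier results of these data known, so its counts are description only. Usp18 read 4.64, 6.34 and 4.70, and Irgm1 read 5.42, 7.48 and 5.74, so the gap between repeat 2 and the others exceeded any helicase's. Ddx60 and Dhx58 stayed below the cutoff in repeat 2 as well. So did 2 of the interferon response genes, Ifit3 at 3.89, 3.79 and 3.55 and Mx1 at 3.38, 3.22 and 3.33. Values of these 2 genes lay under the cutoff on every array, so their differences between repeats have no order either. The Ddx60 window printed above holds 2 copies of the interferon-response-like motif. The difference between these helicases and the interferon response genes was not tested.

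**Figure D4:**
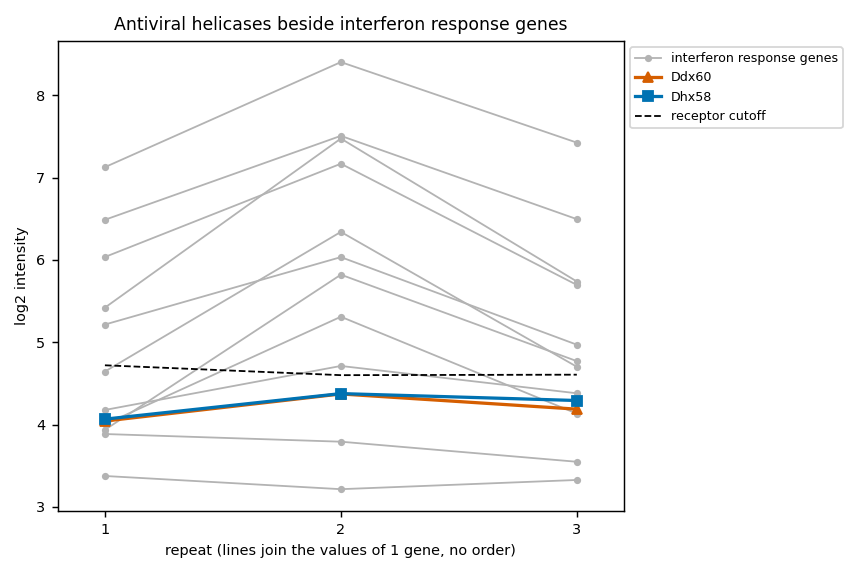
Log2 intensity (vertical axis) of Ddx60, Dhx58 and 11 interferon response genes (grey) in repeats 1, 2 and 3, with the receptor cutoff of each array dashed; lines join the values of 1 gene. Ddx60 and Dhx58 lie between 4.04 and 4.38, under the cutoff in every repeat, while most grey lines peak in repeat 2.

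Markers of cell types were read beside these results. All 9 measured ES cell markers were above background, including Pou5f1, Sox2 and Nanog. Of 15 fibroblast markers 13 were above background on all 3 arrays (67.3% of all genes), with a mean log2 level of 7.48, 8.003 and 7.47 in repeats 1, 2 and 3. Repeat 2 was highest in 12 of the 14 tested (36.4% of all genes tested), and the variance test called 4 of the 14 (0.162% of all genes tested). The list was chosen with earlier results of these data known, so these counts are description only. Of 7 haematopoietic genes 4 were above background on all 3 arrays (67.3% of all genes). They were Laptm5, Cd68, Coro1a and Cd3e, at mean log2 levels of 8.98, 7.33, 6.42 and 5.50. The other 3 were above it on no array: Ptprc (3.70 ± 0.030, SD, n = 3), Cd79a (3.52) and Lyz2 (3.69). The fibroblast markers' median shift in repeat 2 was 0.44 log2 units, beside 1.24 for interferon response genes and 0.054 for ribosome assembly helicases, and the part of other cells in the helicase values was not tested. Over all 46 helicases the median shift in repeat 2 was -0.00051 log2 units, and 23 lay above and 23 below the other repeats.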

How the data were processed

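Total RNA was extracted with Trizol and biotin-labelled, per the labels' protocols. The authors deposited linear probe set intensities. The submitters' processing notes name GCOS 1.4, and for background, normalization and summary the method is not given in the sources used here. Medians were 47.8, 46.7 and 46.8, so intensities were taken to log2 unscaled (a lower limit of 1 changed 0 values). Probe sets with 1 symbol (20764 of 26730) were averaged per gene; the helicases had 51. All 48 matched RefSeq. In limma 3.58.1 (R 4.3.3) the residual variance around each gene's mean over the trended, robust prior was set against F with 2 and 9.86 degrees of freedom, and was tried on simulated data first. Python 3.11.15, numpy 2.4.6 and pandas 2.3.3 did the rest. Members, lists and tests were chosen with earlier results of these data known.

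Genes to name were members below background, the 8 largest and 4 smallest SDs, called members, and pairs with proteins 70% identical (not applied, as no protein sequences were used here). In other lists they were the 2 largest SDs and minority sides of 5 or fewer. Values of the remaining members were printed after they were seen. The number of arrays limits precision. Alternatives covered cutoff, normalization, offset, prior, filter, probe set rule and each repeat left out.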

Additional observations from a re-analysis of the deposited data

How the results depend on the processing

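Helicases above background numbered 43 to 46 under all 7 alternatives. The variance test called 0 of them under all 10, beside 0 to 39 genes in all; Ddx28 had an unadjusted p of 0.0353 without repeat 2 (limma, adjusted p = 0.848). Their median SD, 0.0391 to 0.0712, lay below that of all genes under all 7. Their median shift changed sign with the scaling: in repeat 1 it was -0.019, 0.023 after quantile normalization and -0.052 after centring, and in repeat 2 it was -0.00051, -0.038 and 0.017. Shifts by role under other scalings were chosen after seeing the data. Of 98 recomputed SDs of 14 named helicases, 94 moved by less than the SD itself. A fall cannot exceed that limit, so the count shows only that few SDs rose far. Ddx28, which fell from 0.22 to 0.0019 without repeat 3, is among the 94. The exceptions were Ddx3x (0.030), Dhx8 (0.037) and Dhx40 (0.029) after centring and Ddx46 (0.044) after quantile normalization, so the order of the most even genes depends on scaling. Signal near background limits Ddx25, Ddx28, Ddx60, Dhx34 and Dhx58. No paired analysis was possible because the study has 1 group.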
